A study of Mus musculus with 6 samples.

Results

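The genes described here are 10 feedback and output genes of the ERK branch of the mitogen-activated protein kinase (MAPK) pathway: Dusp4, Dusp5, Dusp6, Spry1, Spry2, Spry4, Spred1, Spred2, Etv4 and Etv5. They were chosen by name, by an exact match of the gene symbol, and are 10 of the 18182 genes listed in the files. Each was detected in all 6 libraries, and all 10 had enough counts for edgeR's default filter. Sequencing was done on Lewis lung carcinoma (LLC), a single mouse lung cancer line of the C57BL/6 strain, with cells carrying red fluorescent protein (RFP). They had been injected under the skin of C57BL/6 mice either on their own (LLC alone, 3 libraries) or with bone marrow-derived mesenchymal stem cells of the same strain (LLC with BMSCs, 3 libraries). RFP-positive cells were sorted by flow cytometry from the primary tumours of both groups. The groups thus share the line, the RFP label, the host and the sort, and differ by design in the BMSCs given. Cells were collected once tumours reached a set size, and the time this took in each group is not given in the study's text. The mice of the tumour growth experiments were female and 6 weeks old, and the age of those used for sequencing is not stated. The sources do not say whether a library came from 1 mouse or from pooled mice, so that p values measure the spread between these libraries, which may be technical.

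When a growth factor receptor activates RAS, the kinases RAF, MEK and ERK act in turn, and active ERK drives transcription of genes that then restrain the same cascade. Dual-specificity phosphatases remove the activating phosphates from ERK, and Sprouty and SPRED proteins act further upstream at the level of RAS and RAF. ETV4 and ETV5 are transcription factors of the PEA3 group of ETS proteins, whose transcripts are widely used as readouts of ERK signalling together with DUSP6, SPRY and SPRED transcripts. The comparison asks which of these transcripts differed between LLC cells grown with BMSCs and LLC cells grown alone.

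The promoter windows of the genes are given first, because ETS factors bind a short GGAA-centred site and serum response factor binds the CArG box, both of which are known routes from ERK to transcription. RefSeq windows of 300 bases, from 250 before to 50 after a start site on build GRCm38.p6, were at hand for 7 of the 10 genes. Dusp4, Spry4 and Etv4 had no entry. The Spred1 window ends at 117121120, before the start of the gene in the GENCODE annotation (117121374), so that RefSeq and GENCODE place its start differently. On either strand, the ETS letters CGGAA occurred in 5 of the 7 genes and in 29.9% of 32851 mouse promoter windows of the same length. Dusp6 held 3 matches, which began 155, 144 and 61 bases before the start site, Spred1 and Spred2 held 2 each, and Spry2 and Dusp5 held 1 each. Spry1 and Etv5 held none in their windows. A directly adjoining pair of CArG boxes began 82 and 72 bases before the Dusp5 start site. The CArG box was found in 1.63% of all windows and in no other of the 7 genes. The AP-1 letters TGANTCA (7.81% of windows), the cyclic AMP response element TGACGTCA (1.79%) and the STAT letters TTCNNNGAA (8.3%) were in none of the 7 genes. The motifs were picked with these sequences in view, and a match is a description of the letters only. The windows below belong to 1 gene that rose at a low level (Dusp5, CArG letters in capitals) and to 3 genes with ETS letters in capitals that did not pass the test (Dusp6), fell (Spry2) and rose (Spred1).
Dusp5, chr19:53528895-53529194, plus strand: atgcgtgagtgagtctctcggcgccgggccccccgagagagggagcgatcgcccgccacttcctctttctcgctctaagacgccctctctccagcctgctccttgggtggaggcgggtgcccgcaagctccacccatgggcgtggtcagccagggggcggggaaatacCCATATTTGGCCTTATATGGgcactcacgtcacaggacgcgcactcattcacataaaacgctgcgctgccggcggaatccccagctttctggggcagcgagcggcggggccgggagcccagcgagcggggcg
Dusp6, chr10:99262981-99263280, plus strand: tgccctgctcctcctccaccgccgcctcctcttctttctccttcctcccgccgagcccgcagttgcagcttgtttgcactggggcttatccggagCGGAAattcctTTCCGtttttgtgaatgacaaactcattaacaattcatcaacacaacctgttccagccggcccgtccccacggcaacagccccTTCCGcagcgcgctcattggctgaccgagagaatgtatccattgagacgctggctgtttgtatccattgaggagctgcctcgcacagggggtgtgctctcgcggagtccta
Spry2, chr14:105896770-105897069, minus strand: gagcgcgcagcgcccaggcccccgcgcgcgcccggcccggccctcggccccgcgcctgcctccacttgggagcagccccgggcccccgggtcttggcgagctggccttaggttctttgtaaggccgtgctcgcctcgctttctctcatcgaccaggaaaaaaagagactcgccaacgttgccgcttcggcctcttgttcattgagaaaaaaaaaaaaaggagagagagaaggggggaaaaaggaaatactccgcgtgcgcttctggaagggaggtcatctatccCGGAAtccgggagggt
Spred1, chr2:117120821-117121120, plus strand: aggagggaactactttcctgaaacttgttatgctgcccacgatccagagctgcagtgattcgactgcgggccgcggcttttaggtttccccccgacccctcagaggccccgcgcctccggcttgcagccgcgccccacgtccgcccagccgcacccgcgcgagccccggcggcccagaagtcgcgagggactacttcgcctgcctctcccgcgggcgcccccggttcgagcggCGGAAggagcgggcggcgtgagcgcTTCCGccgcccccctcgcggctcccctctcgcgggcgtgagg

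The libraries held 33476347 to 46189113 estimated fragment counts on genes, and replicates varied with a biological coefficient of variation of 9.92%. Levels are given in FPKM (fragments scaled by the length of the transcript model and by the library total, as the authors computed them), and fold changes are log2 values of LLC with BMSCs over LLC alone from edgeR's quasi-likelihood test on the counts, with Benjamini-Hochberg adjustment over 13353 tested genes and a threshold of 0.05. Of the 10 genes, 4 were higher in LLC with BMSCs (Dusp5, Spry1, Spred1 and Spred2), 4 were lower (Dusp4, Spry2, Spry4 and Etv5), and Dusp6 and Etv4 did not pass the test. Over all tested genes 31.5% were higher and 31.3% lower, 62.9% in either direction, so that a share of 8 in 10 has to be read against a comparison in which most genes were called. The median log2 fold change was 0.097 over the 10 genes and 0.012 over all tested genes. In FPKM, the 2 groups of libraries did not overlap for 8 of the 10 genes, against 70.6% of tested genes, and an exact permutation test of 3 libraries against 3 gave its smallest possible two-sided p of 0.1 for each of the 8. Only Dusp4 changed by 1 or more on the log2 scale. Over all tested genes, 8.65% rose and 7.17% fell by at least that much. The number of genes called higher was 2 when LLC with BMSCs replicate 1 or replicate 3 was left out, since Spry1 and Spred2 were then not called.

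**Figure D1:**
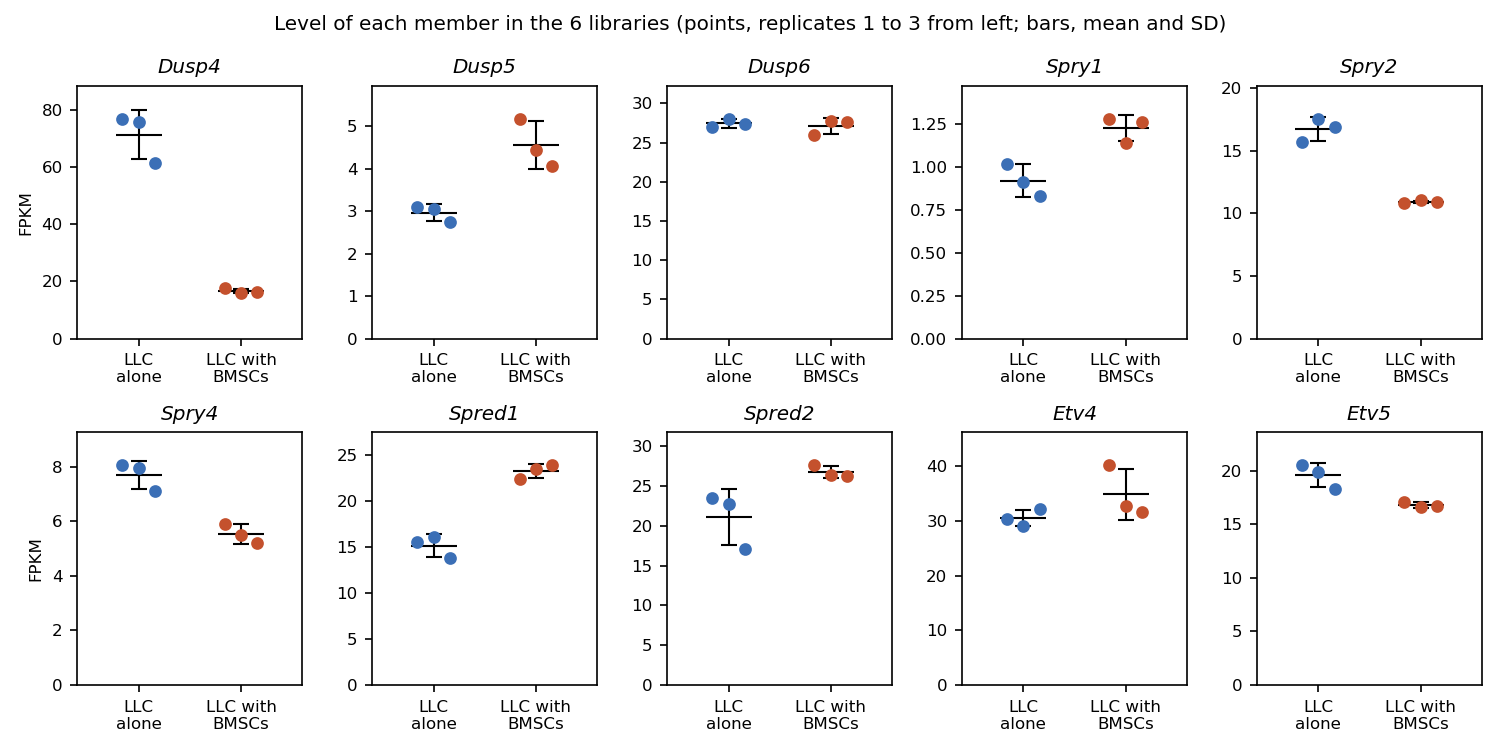
FPKM of each of the 10 genes in the 3 libraries of LLC alone and the 3 of LLC with BMSCs, with 1 panel per gene and its own vertical axis from 0. Points are libraries and bars are the mean and SD of a group. The groups are apart in 8 panels and overlap for Dusp6 and Etv4.

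The phosphatase genes moved in different directions. Dusp4 encodes a nuclear phosphatase of ERK, JNK and p38 (chr8:34807297-34819894, plus strand, GRCm38). Dusp4 stood at 76.9, 75.7 and 61.5 FPKM in LLC alone replicates 1 to 3 and at 17.5, 16.0 and 16.3 FPKM in LLC with BMSCs replicates 1 to 3. Every library with BMSCs lay far below every library of LLC alone, of which replicate 3 was the lowest. Mean FPKM was 71.3 ± 8.59 without and 16.6 ± 0.791 with BMSCs (SD, n = 3). Dusp4 fell by 2.12 on the log2 scale (SE 0.097, 95% interval -2.35 to -1.90, edgeR adjusted p = 2.1e-06), which is 4.36-fold lower. A fall at least as large was found in 2.07% of tested genes. The fit called Dusp4 lower in all 17 alternative analyses, with log2 fold changes from -2.21 to -2.03.

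Dusp5 encodes an inducible nuclear phosphatase specific for ERK (chr19:53529109-53542431, plus strand). Dusp5 was low, at 3.10, 3.06 and 2.74 FPKM in the libraries of LLC alone and at 5.17, 4.44 and 4.07 FPKM in those with BMSCs. The groups did not overlap, and LLC with BMSCs replicate 1 was the highest library. The log2 fold change of Dusp5 was 0.60 (SE 0.12, interval 0.32 to 0.89, edgeR adjusted p = 0.00351) on 111 to 250 counts per library, and it was called in all 17 alternatives. With each library's trend over gene length removed it was 0.87. The transcript model of Dusp5 in the files is 1155 bases long, which equals the annotated coding length, so that its level counts the coding part only and may not compare with genes whose models hold untranslated ends. The annotation also places an exon of the opposite-strand gene AC137853.2 over Dusp5, and no source states whether counting used the strand.

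Dusp6 encodes a cytoplasmic phosphatase specific for ERK and is among the most used transcript readouts of ERK activity (chr10:99263231-99267489, plus strand). Its level was 26.9, 28.0 and 27.4 FPKM in the libraries of LLC alone and 25.9, 27.8 and 27.7 FPKM in those with BMSCs. The libraries of the groups interleaved within a range of about 2 FPKM. Dusp6 was not called in the main test (log2 fold change -0.037, SE 0.056, edgeR adjusted p = 0.588) nor in any of the 17 alternatives, where the log2 fold change ran from -0.066 to -0.0079. The 95% interval of the log2 fold change was -0.17 to 0.094, which is 0.890 to 1.07 as a ratio of the groups. The ETS letters in its promoter window, shown above, were the most numerous among the printed windows.

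Since Dusp4 fell and Dusp6 did not pass the test, the makeup of the phosphatase transcripts differed between the groups. The ratio of Dusp4 to Dusp6 in FPKM was 2.85, 2.70 and 2.25 in LLC alone and 0.675, 0.577 and 0.588 in LLC with BMSCs. Dusp4 was thus the more abundant of the pair in every library of LLC alone and the less abundant in every library with BMSCs. Dusp4 gave 70.0% ± 2.53 of the summed FPKM of the 3 phosphatase genes in LLC alone and 34.4% ± 1.46 in LLC with BMSCs (SD, n = 3). The share of Dusp6 was 27.1% and 56.2%, and that of Dusp5 was 2.92% and 9.44%. The summed level of the 3 genes was 102 ± 8.82 FPKM without BMSCs and 48.3 ± 0.310 FPKM with them. None of these sums, shares and ratios overlapped between the groups, and each reached the smallest two-sided p of 0.1 of the exact permutation test.

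**Figure D2:**
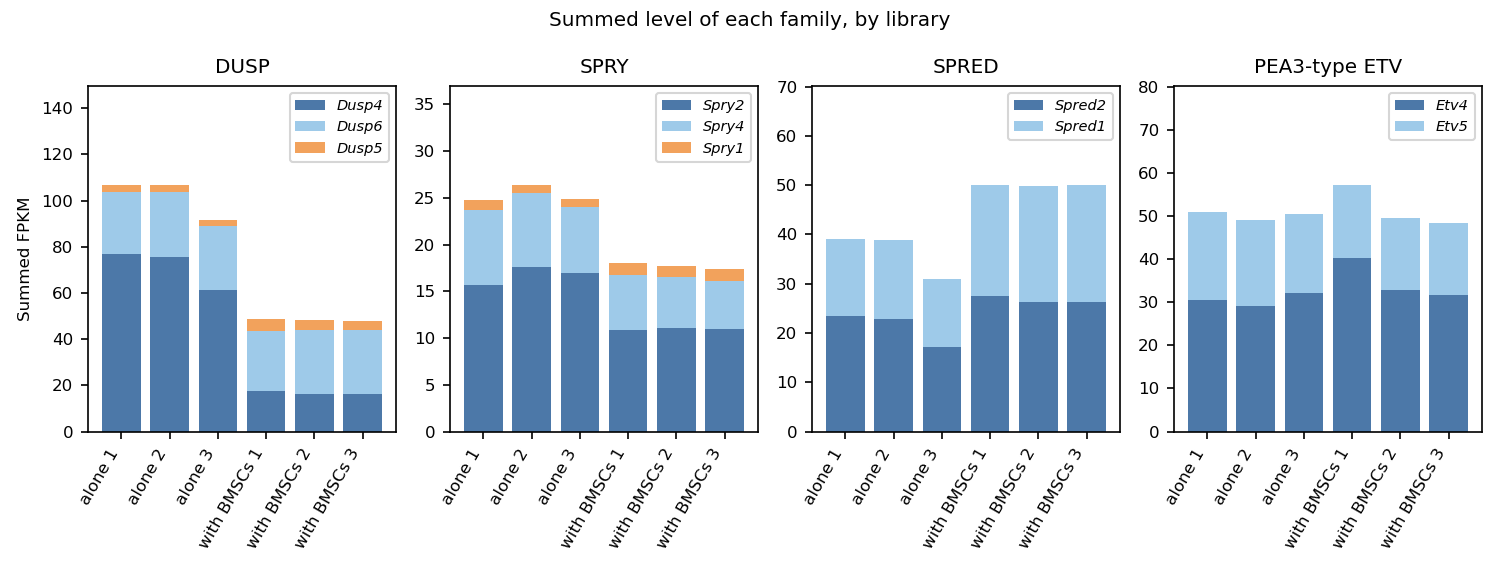
Summed FPKM of the phosphatase (Dusp4, Dusp5, Dusp6), Sprouty (Spry1, Spry2, Spry4), SPRED (Spred1, Spred2) and PEA3-type ETV (Etv4, Etv5) transcripts, with each library's stack divided by gene. Dusp4 makes up most of the phosphatase stack in the 3 libraries of LLC alone and 34.4% of a smaller stack in the 3 with BMSCs, and the SPRED stack is taller with BMSCs.

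Among the Sprouty genes, whose products are induced by growth factors and limit signalling from their receptors, Spry2 and Spry4 fell and Spry1 rose. Spry2 (chr14:105891947-105896819, minus strand) was at 15.7, 17.6 and 16.9 FPKM in the libraries of LLC alone and at 10.9, 11.0 and 10.9 FPKM in those with BMSCs. The libraries with BMSCs were close to each other and all below those of LLC alone. Spry2 fell by 0.63 on the log2 scale (SE 0.061, edgeR adjusted p = 7.81e-05), or 1.55-fold. Spry4 was at 8.05, 7.94 and 7.13 FPKM in the libraries of LLC alone and at 5.90, 5.51 and 5.20 FPKM in those with BMSCs. Its groups were also apart, and it fell by 0.50 (SE 0.073, edgeR adjusted p = 0.000691), or 1.41-fold. Both were called lower in all 17 alternatives. The ratio of Spry2 to Spry4 was 2.18 ± 0.216 in LLC alone and 1.98 ± 0.131 in LLC with BMSCs, with overlapping libraries (exact permutation p = 0.3), so that no difference between their falls was detectable with 3 libraries a group.

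Spry1 (chr3:37639947-37644598, plus strand) had the lowest level of the 10 genes in both groups. It was at 1.02, 0.910 and 0.830 FPKM in the libraries of LLC alone and at 1.28, 1.14 and 1.26 FPKM in those with BMSCs, from 65 to 123 counts per library. The groups did not overlap, and LLC alone replicate 1 came nearest to the libraries with BMSCs. Spry1 rose by a log2 fold change of 0.40 (SE 0.13, interval 0.10 to 0.70, edgeR adjusted p = 0.0271), and this call was lost in 6 of the 17 alternatives, among them DESeq2 (adjusted p = 0.0641) and 4 of the 6 analyses that leave out 1 library. In the annotation an exon of the opposite-strand gene Gm42922 overlaps Spry1. The split of Spry1 counts over its 4 transcript models changed from library to library within each group, so that none of its transcripts was compared. Summed over the 3 Sprouty genes, FPKM was 25.4 ± 0.918 in LLC alone and 17.7 ± 0.330 in LLC with BMSCs (SD, n = 3), and the libraries did not overlap.

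Both SPRED genes, which encode membrane-bound inhibitors that bring neurofibromin to RAS, rose in LLC with BMSCs. Spred1 (chr2:117121374-117182279, plus strand) was at 15.6, 16.1 and 13.8 FPKM in the libraries of LLC alone and at 22.4, 23.4 and 23.8 FPKM in those with BMSCs. The groups were well apart. Spred1 rose by 0.59 on the log2 scale (SE 0.069, edgeR adjusted p = 0.000207), or 1.51-fold, and was called in all 17 alternatives. Its transcript model is long, at 6259 bases, and with the trend over gene length removed its log2 fold change was 0.36 (edgeR adjusted p = 0.000329). Spred2 (chr11:19924375-20024026, plus strand) was at 23.4, 22.8 and 17.1 FPKM in the libraries of LLC alone and at 27.6, 26.4 and 26.3 FPKM in those with BMSCs. LLC alone replicate 3 was well under the other libraries, and the groups did not overlap. The log2 fold change of Spred2 was 0.32 (SE 0.11, edgeR adjusted p = 0.0393), and 0.20 (edgeR adjusted p = 0.00578) without LLC alone replicate 3. Leaving out any 1 library with BMSCs ended the call for Spred2, with adjusted p from 0.0785 to 0.113. Summed SPRED FPKM was 36.2 ± 4.65 in LLC alone and 49.9 ± 0.156 in LLC with BMSCs, opposite in direction to the phosphatase and Sprouty sums. The fall of the phosphatase sum lay in Dusp4, since Dusp5 rose and Dusp6 was not called.

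Of the ETS factor genes, Etv5 fell slightly and Etv4 did not pass the test. Etv5 (chr16:22381309-22439719, minus strand) was at 20.5, 19.9 and 18.3 FPKM in the libraries of LLC alone and at 17.1, 16.6 and 16.7 FPKM in those with BMSCs. Every library with BMSCs was below every library of LLC alone. Etv5 fell by 0.24 on the log2 scale (SE 0.062, edgeR adjusted p = 0.0105), or 1.18-fold, and was called in 15 of the 17 alternatives, the exceptions being the sum of close replicates (0.141) and the analysis without LLC with BMSCs replicate 2 (0.0506). Etv4 (chr11:101769742-101785371, minus strand) was at 30.4, 29.1 and 32.1 FPKM in the libraries of LLC alone and at 40.2, 32.8 and 31.6 FPKM in those with BMSCs. The groups overlapped, and LLC with BMSCs replicate 1 stood above the other 5 libraries. The log2 fold change of Etv4 was 0.23 (SE 0.097, interval 0.0041 to 0.46, edgeR adjusted p = 0.0705). It was 0.12 (edgeR adjusted p = 0.17) without LLC with BMSCs replicate 1 and passed the threshold at 0.27 (edgeR adjusted p = 0.0335) without LLC alone replicate 3. The ratio of Etv4 to Etv5 was 1.57 ± 0.162 in LLC alone and 2.07 ± 0.244 in LLC with BMSCs (SD, n = 3), without overlap between libraries. Their summed FPKM was 50.2 ± 0.974 and 51.7 ± 4.87, and those libraries overlapped (exact permutation p = 0.9).

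**Figure D3:**
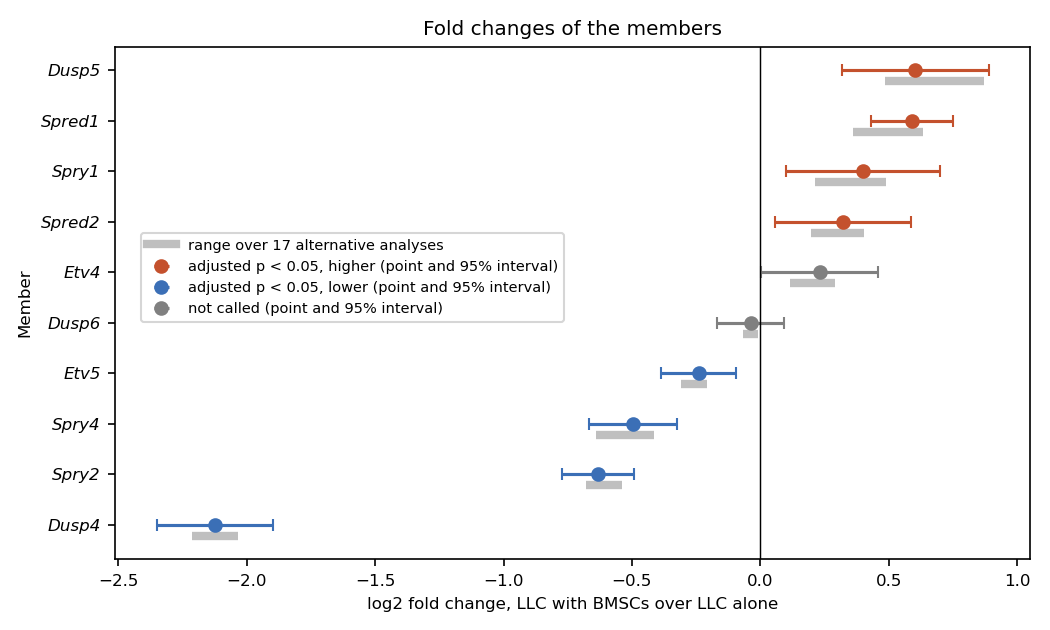
Log2 fold change (LLC with BMSCs over LLC alone) of each gene with its 95% interval from edgeR, above a grey bar that gives the range over the 17 alternative analyses. Orange marks genes called higher, blue genes called lower and grey points genes not called. Dusp4 lies near -2.12 and apart from all others, the remaining genes lie between -0.63 and 0.60, and the interval of Dusp6 spans 0.

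Ordered by mean FPKM, the genes ran Dusp4, Etv4, Dusp6, Spred2, Etv5, Spry2, Spred1, Spry4, Dusp5 and Spry1 in LLC alone. In this order the libraries of neighbours overlapped for Spred2 with Etv5 and for Spry2 with Spred1. In LLC with BMSCs the order was Etv4, Dusp6, Spred2, Spred1, Etv5, Dusp4, Spry2, Spry4, Dusp5 and Spry1, with overlap for Dusp6 with Spred2 and for Etv5 with Dusp4. Dusp4 thus moved from the first place to the sixth, while Spry4, Dusp5 and Spry1 held the last 3 places in both groups. Summed over the 10 genes, FPKM was 213 ± 13.6 in LLC alone and 168 ± 5.47 in LLC with BMSCs. Dusp4 alone went from 71.3 to 16.6 FPKM, a larger difference than that of the sum. The lower sum therefore does not describe the other genes, which moved in both directions.

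A single transcript model carried Dusp4, Dusp5, Dusp6, Spry2, Spry4, Spred2 and Etv5, so that no isoform comparison could be made for them, and NM_033524 held 99.4% to 99.9% of the Spred1 counts in each library. Etv4 had 5 models. Its main transcript NM_001316365 was at 22.3 ± 0.0964 FPKM without BMSCs and 25.6 ± 3.78 FPKM with them (SD, n = 3), and held 67.5% and 65.0% of the estimated counts of Etv4. A transcript assembled by the authors' pipeline, of 5007 bases, was at 2.02, 2.23 and 1.89 FPKM in the libraries of LLC alone and at 4.32, 3.31 and 3.89 FPKM in those with BMSCs. Another assembled transcript, of 2538 bases, was at 1.26, 1.43 and 1.35 FPKM in LLC alone and was listed at 0 in all 3 libraries with BMSCs. These are estimates in which reads shared by the models were divided among them, and an exact 0 may be a failed estimate. Both assembled transcripts were picked out after their values were seen.

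Genes whose profile over the 6 libraries lay among the 5 closest to that of Dusp6, of 8918 genes with at least 10 CPM (counts scaled to a common library total), included Hsd17b4, Ndufs1, Hnrnpa3 and Ppp4r2. Closeness was the Euclidean distance of log2 CPM after each gene was centred on its mean, and it ran from 0.0269 for Hsd17b4 to 0.0495 for Ppp4r2. Their log2 fold changes ran from -0.051 to -0.030, near that of Dusp6 because they were chosen by closeness over the same libraries.

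The kinase cascade above these genes was described with a list of 36 RAS, RAF, MEK and ERK cascade genes, of which 33 were tested. Of the 33, 10 were higher, 8 were lower and 15 did not pass, with a median log2 fold change of 0.12. Over all tested genes 31.5% were higher and 31.3% lower, 62.9% in either direction, with a median of 0.012. Map2k1, which encodes the ERK kinase MEK1, was at 35.4, 35.6 and 38.7 FPKM in the libraries of LLC alone and at 78.8, 85.2 and 85.6 FPKM in those with BMSCs. The groups were far apart, and it was the only cascade gene to rise by 1 or more (log2 fold change 1.17, SE 0.065, edgeR adjusted p = 5.42e-06). The next largest rises were those of the exchange factor Sos1 (0.67), the adaptor Grb2 (0.63) and the kinase Braf (0.58). Lamtor3, the MEK1-binding scaffold also called MP1, was at 80.7, 82.6 and 87.9 FPKM in the libraries of LLC alone and at 36.0, 38.1 and 38.9 FPKM in those with BMSCs, a fall by 1.17 (edgeR adjusted p = 4.48e-06). Pebp1, the RAF kinase inhibitor protein, fell by 1.02 (edgeR adjusted p = 0.00185) from 96.1 ± 26.9 to 48.1 ± 4.83 FPKM, with LLC alone replicate 3 high at 127 FPKM. The RAS relative Mras fell by 0.87 and the adaptor Gab1 by 0.66. Mapk3, encoding ERK1, fell by 0.40 (edgeR adjusted p = 0.00175). Map2k2, encoding MEK2, did not pass edgeR's threshold (log2 fold change 0.19, adjusted p = 0.0503). With each library's trend over gene length removed, 14 cascade genes were called higher in place of 10, and 14 lower in place of 8. Calls over all tested genes also rose, to 4758 higher in place of 4210 and to 4573 lower in place of 4183.

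A list of 36 other ERK feedback, target and effector genes had 34 tested, with 14 higher, 15 lower and 5 that did not pass. Its median log2 fold change was -0.058, and 62.9% of all tested genes were called in either direction. Among genes that reached a mean of 1 FPKM in a group, the largest rises were those of the immediate early transcription factor Fos, from 0.530 to 2.43 FPKM (log2 fold change 2.15), and of the cytokine Lif, from 0.953 to 3.39 FPKM (1.81). Errfi1, an inhibitor of EGF receptor kinases, rose from 14.0 to 24.7 FPKM (0.80), and Spred3, the relative of Spred1 and Spred2, from 1.66 to 2.58 FPKM (0.57). On the falling side, the neuropeptide precursor Vgf went from 1.13 to 0.417 FPKM (log2 fold change -1.47) and the transcription factor Myc from 683 to 298 FPKM (-1.22). The EGF receptor ligand Areg went from 46.9 to 22.4 FPKM (-1.09), and the phosphatase gene Dusp2 from 10.5 to 5.36 FPKM (-0.99). These 8 were picked only from genes that passed edgeR's threshold and did not overlap between groups. Rps6ka1 (RSK1, an ERK-activated kinase) rose and the cytokine Il11 fell by more than some of these, but both stayed under 1 FPKM in each group mean. The list held 8 other dual-specificity phosphatase genes, which are given whole after their values were seen. Of these, Dusp9 (43.1 ± 1.44 to 59.8 ± 3.01 FPKM, log2 fold change 0.45) and Dusp16 (0.44) were higher, and Dusp1 (-0.73), Dusp2 and Dusp8 (-0.76) were lower by edgeR. Dusp7 (0.15, adjusted p = 0.051), Dusp10 (-0.15, adjusted p = 0.0762) and Dusp14 (-0.019, adjusted p = 0.869) did not pass edgeR's threshold. The falls of Dusp1, Dusp2 and Dusp8 were smaller than that of Dusp4, whose difference from them was not tested.

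**Figure D4:**
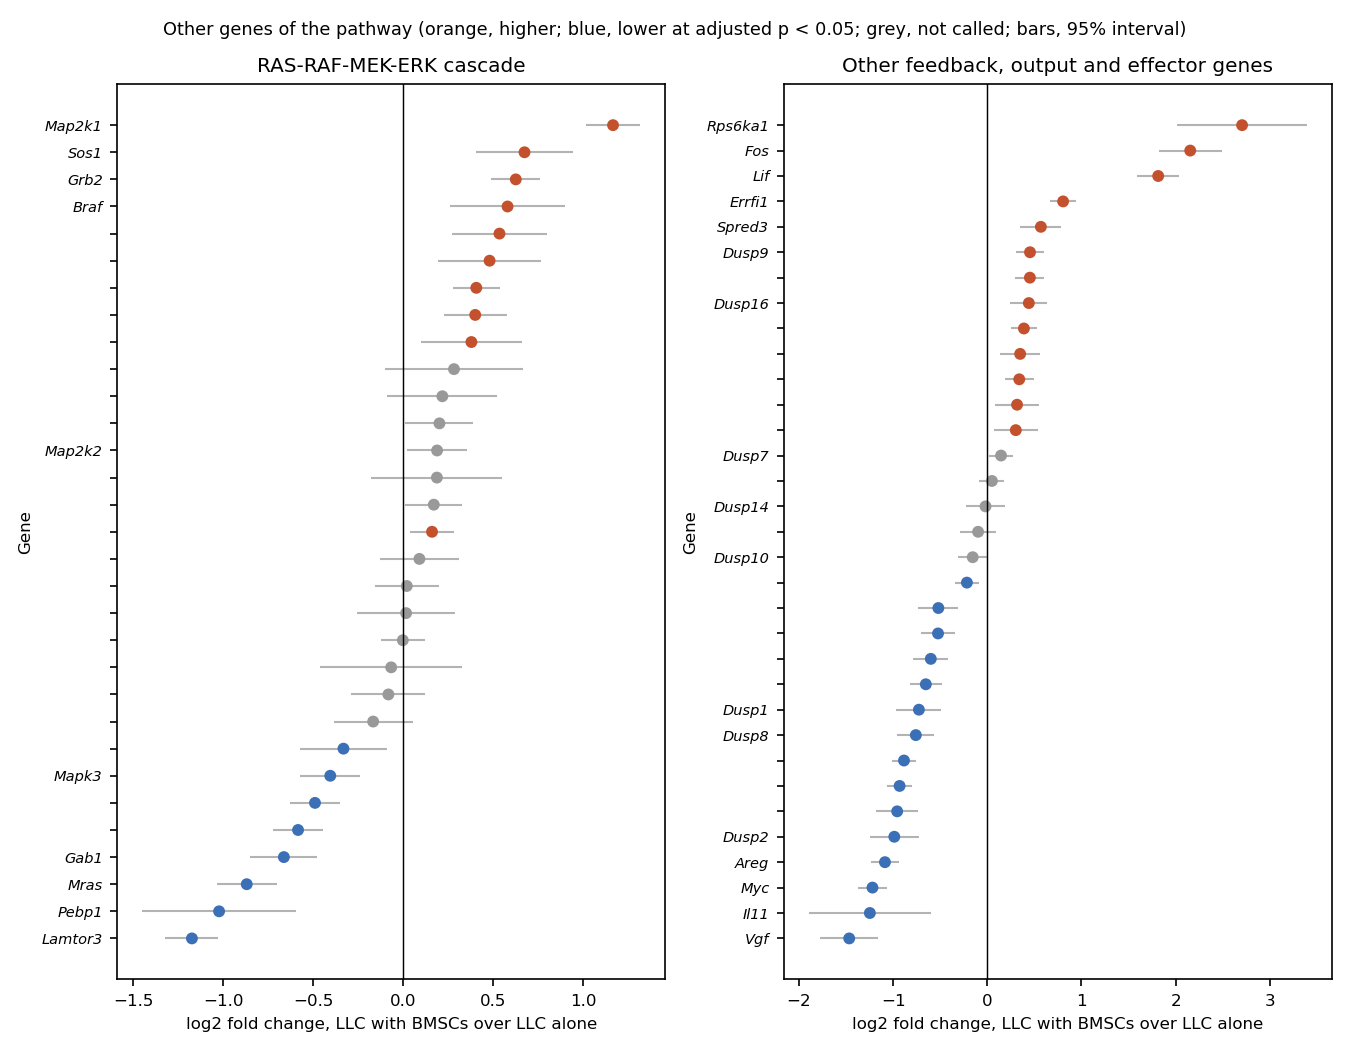
Log2 fold changes (LLC with BMSCs over LLC alone) with 95% intervals from edgeR for tested genes of the cascade list (left) and of the other ERK feedback, target and effector list (right). Orange points are genes called higher and blue points genes called lower at the threshold of 0.05, and grey points are genes not called. Genes named in the text are labelled. Egr1 is not drawn because it had at most 2 counts in each library of LLC alone. Called genes lie on both sides of 0 in both lists, 10 higher and 8 lower on the left.

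Most tested markers from the BMSC, macrophage and neutrophil lists were higher in the sorted cells of tumours with BMSCs. Of 10 BMSC markers, 8 were tested and all 8 were higher, and their summed level was 271 to 326 CPM in LLC alone and 670 to 702 CPM in LLC with BMSCs. Col3a1 went from 41.2 to 100 FPKM and Dcn from 0.110 to 6.31 FPKM. Thy1 and Cxcl12 were at 0 in every library of LLC alone and at most at 0.1 FPKM with BMSCs. Col3a1 made up most of these sums, with means of 228 CPM in LLC alone and 546 CPM in LLC with BMSCs. Pdgfra (5.78 FPKM) and Pdgfrb (6.59 FPKM) were, like Col3a1, present in LLC alone, so that these genes are not particular to BMSCs here. Of 10 macrophage markers, 6 were tested, with 5 higher and 1 lower, at 9.60 to 11.7 and 18.5 to 19.1 CPM in sum. The lower one was Cd68, from 5.55 to 3.03 FPKM (log2 fold change -0.89, edgeR adjusted p = 0.000501). Adgre1, C1qa and C1qc were at 0 in LLC alone. With BMSCs, C1qa and C1qc had at most 3 counts in a library and were not tested. Of 10 neutrophil markers, 7 were tested and all 7 were higher, at 0.479 to 0.780 and 21.2 to 23.8 CPM. No lymphocyte marker was tested (0.349 to 0.417 and 0.225 to 0.426 CPM), and of 4 endothelial markers 1 was lower (14.1 to 17.8 and 13.3 to 14.4 CPM). Of 10 epithelial markers, 2 were tested, Krt8 and Krt18, and both were higher. Krt8 was at 95.3 and 110 FPKM, and Krt18 at 0.0833 and 0.653 FPKM (log2 fold change 2.91, edgeR adjusted p = 0.000221). Cldn4 had no values. All others but Krt8, with Epcam, Cdh1 and the lung genes Nkx2-1 and Sftpc among them, were under 1 FPKM in every library. The lung epithelial origin of the line thus rests on few markers here. The part of the BMSC, macrophage and neutrophil signal in the values of the 10 genes was not tested, and in bulk libraries fewer cells of a type and less RNA per cell cannot be told apart. Transcript length also moved with the groups, since the median log2 fold change rose from -0.28 in the shortest of 5 equal bins of model length to 0.26 in the longest, and LLC alone replicate 3 deviated most from the other libraries in both. Removing that trend moved Dusp5 and Spred1 as given above and left 8 of the calls on the 10 genes as they were while adding Etv4 (log2 fold change 0.26, edgeR adjusted p = 0.0202).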

How the data were processed

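RNA of sorted RFP-positive LLC cells was sequenced in 6 libraries, 3 per group, with groups taken from the labels. The study's methods describe oligo-dT enrichment and paired-end reads on the BGISEQ-500, whereas the labels name Illumina protocols. The authors deposited, per gene and per transcript, estimated counts of fragments, which are not normalized and divide shared reads among similar transcripts, together with a model length and FPKM values scaled by that length and the library total. Between 21.9% and 23.2% of genes in a library had a count that was not whole. The submitters' processing notes name HISAT, StringTie, Cufflinks, GATK and the build mm8, without roles; the counting program and its use of strand are not given in the sources used here. A deposited table of FPKM for the whole series was not used. Gene positions are from GENCODE M21 (GRCm38), since the files hold none, and promoters are from RefSeq (GRCm38.p6).

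Estimated counts were rounded and tested in R 4.3.3 with edgeR 4.0.16 (TMM, filterByExpr, quasi-likelihood test, Benjamini-Hochberg adjustment over 13353 genes, threshold 0.05). SE is the absolute log2 fold change over the square root of F, and intervals are 95% intervals from it. Depth was 33476347 to 46189113 counts per library, and a gene at or under 3 counts in each library of a group was given only a bound. That floor covers counting error only. The study's methods state no test for counts. The procedure was tested on simulated data. The members, gene lists and motifs were chosen with earlier results of these data known. All 10 members are named, and from each of the 2 pathway lists up to 4 rises and 4 falls with the largest fold change among genes that passed the threshold, did not overlap between groups and reached 1 FPKM in a group mean, plus Mapk3, Map2k1 and Map2k2. Some genes that the rules name are not reported here. Alternatives were DESeq2 1.42.0, scaling by upper quartile or by library size alone, leaving out the filter, at least 10 counts in every library, limma 3.58.1 on log2(FPKM + 1) and log2(FPKM + 0.1), a replicate block, removal of each library's length trend by lowess, summing of close replicates (LLC alone 1 with 2, LLC with BMSCs 2 with 3), leaving out each library, and stricter thresholds.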

Additional observations from a re-analysis of the deposited data

How the results depend on the processing

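Over 17 alternative analyses, no log2 fold change of the 10 genes changed sign, and of the 170 gene values 154 kept their side of the threshold. Calls were lost for Spry1 in 6, Spred2 in 5 and Etv5 in 2 alternatives, and Etv4 gained a call in 3. With close replicates summed, 2 of the 10 genes were higher. Leaving out 1 library gave 2 to 4 genes higher and 3 to 4 lower among the 10, with 2 without LLC with BMSCs replicate 1 or 3. It gave 8 to 14 higher and 7 to 12 lower in the cascade list, 13 to 15 higher and 14 to 16 lower in the other list, and 3617 to 4736 higher and 3581 to 4539 lower over all tested genes. When a call also needed a log2 fold change of 1 or more in size, 0 of the 10 genes were higher and 1 was lower. The cascade list then had 1 higher and 2 lower, the other list 4 and 4, and all tested genes 1155 and 957. At an adjusted p under 0.001 with the same fold change, these were 0 and 1, 1 and 1, 4 and 3, and 910 and 723. With the length trend removed, 14 cascade genes were higher (10 in the main test) and 14 lower (8). Over all tested genes, 4758 were then higher (4210 in the main test) and 4573 lower (4183). The removal adjusts all libraries by model length, and the cause of these differences was not tested. Deviations of libraries with the same replicate number correlated at 0.0762, -0.106 and 0.0572, so that the numbers were not taken to pair the samples. With the replicate block, 4 of the 10 genes were higher and 4 lower, and Dusp4 had a log2 fold change of -2.12. Depth limits Spry1 and Dusp5 most, at 65 to 123 and 111 to 250 counts per library.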

Other observations

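Egr1, an immediate early transcription factor downstream of ERK that was chosen here after its values were seen, had at most 2 counts in each library of LLC alone and a mean of 1.84 CPM in LLC with BMSCs. Against a floor of 3 counts per library, it was at least 24.9-fold higher with BMSCs. Its mean with BMSCs was low, at 0.613 FPKM, and the part of other sorted cells in it was not tested.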
